A study of Mus musculus with 7 samples.

Results

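The bone morphogenetic protein (BMP) pathway was followed here as 42 genes picked by symbol: 12 ligands, 7 receptors, 12 secreted antagonists or extracellular modulators, 4 signal-carrying Smads, 3 intracellular or membrane inhibitors and 4 Id genes. Of these 42, 40 have a row among the 18468 genes of the count table, and 30 passed the filter on low counts and were tested. Bmp2 and Gdf10 have no row and were not analysed here. The cells were C3H10T1/2, a mouse line resembling mesenchymal progenitors, grown for at most 10 passages according to the labels. Every culture went 12 h without serum and then 48 h, still without serum, with either 2 μM purmorphamine, a small-molecule agonist of Smoothened (n = 4 libraries, numbered 5 to 8), or 0.02% DMSO as vehicle (n = 3 libraries, numbered 2 to 4). The cells are a single line, and nothing states that the libraries came from separate cultures, so the p-values measure the spread between these libraries, which may be technical. In the study, purmorphamine served to activate the cells' own Smoothened transiently, for comparison with targets found with a constitutively active form of it.

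BMP ligands bind pairs of type I and type II receptors, which phosphorylate Smad1, Smad5 and Smad9. These join Smad4, enter the nucleus and switch on targets such as the Id genes, whose products block basic helix-loop-helix factors, and also Smad6, Smad7 and Bambi, which damp the signal in return. Outside the cell, antagonists such as noggin, chordin and gremlin bind the ligands and keep them from their receptors. In mesenchymal progenitors the pathway is known for driving bone and cartilage formation, and BMP4 also for commitment to fat.

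Values are reads per gene as deposited, at nearly equal depth in every library (14337225 to 14342154 reads in all), where a count of 0 allows up to 3 reads, covering counting error only. Agonist action was checked on Gli1, a Hedgehog target, with 7 to 12 reads in the vehicle libraries and 2522 to 3171 in the purmorphamine libraries. Ptch1, the Hedgehog receptor and a target too, went from 504 to 532 reads up to 10296 to 11451, and Hhip from at most 1 read up to 139 to 197. All 12 mesenchymal or fibroblast markers were detected, summing to between 379926 and 400717 reads with vehicle and between 362619 and 393870 with purmorphamine. By the test given below, 6 of the 12 were called higher and 3 lower (50% and 25%, against 31.4% and 31.1% of all genes). A change of at least 1.5-fold was called for 5 of them (41.7%, against 15.4% of all genes). Skeletal muscle markers summed to at most 8 reads in any library and haematopoietic markers to at most 21. Epithelial markers summed to 14 to 23 reads with vehicle and 111 to 136 with purmorphamine, nearly all from Cdh1, while Krt8 and Krt14 had at most 1 read and the other 5 of 8 listed have no row. Endothelial markers, all 8 with a row, summed to 782 to 823 reads with vehicle and 1901 to 2157 with purmorphamine, nearly all from Tek. Cdh5 went from 0 to between 21 and 26 reads, and Pecam1 had at most 5 in any library. The part of these markers in the results below was not tested. In cells sequenced in bulk, fewer cells of a kind cannot be told apart from fewer transcripts per cell.

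Purmorphamine lowered more of the tested members than it raised, unlike the wider list given below, where 19 rose and 12 fell. That list holds genes of BMP and related signaling. Both lists were chosen with earlier results of these data known, and the difference between them was not tested. Of the 30 members tested, 15 had fewer transcripts, 8 had more and 7 were not called. Calls are by the edgeR quasi-likelihood test, taking a Benjamini-Hochberg adjusted p below 0.2 over all genes. That threshold is the study's own, and it called 62.5% of all 12388 genes tested (31.4% higher and 31.1% lower), against 23 of 30, or 76.7%, of the members (26.7% higher and 50% lower). TMM factors correct for differences in library composition, and scaling by library totals alone instead, the members divided into 9 higher and 11 lower. Under that scaling the median log2 fold change of all genes was 0.051, and the shares of all genes called were not counted. A call with a change of at least 1.5-fold was reached by 8 members, 26.7% of those tested, against 15.4% of all genes (7.89% higher and 7.56% lower). These were Sostdc1, Chrdl1 and Inhba, which rose, and Grem1, Bambi, Gdf11, Id1 and Id3, which fell. Of these 8, 6 changed by at least 2-fold (all but Id1 and Id3), as did 6.66% of all genes. The groups did not overlap in 18 of the 30 members, 7 of them higher and 11 lower with purmorphamine, against 49.5% of all genes (29.1% higher and 20.4% lower). The median log2 fold change of the members was -0.12, whether Sostdc1 entered with its fitted value or its lower bound, and that of all genes was 0.0038. No tested gene of the receptors or signal-carrying Smads changed by 1.5-fold.

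**Figure D1:**
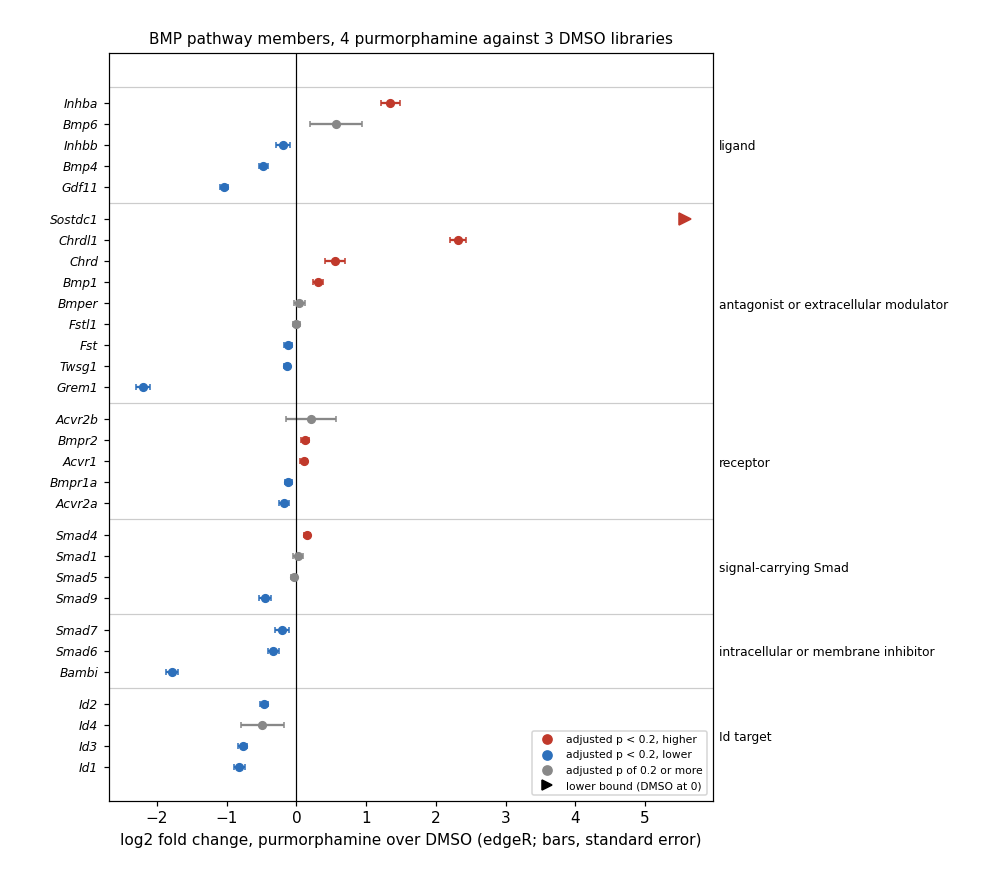
Log2 fold change of each tested member (points, with standard errors; x axis, purmorphamine over DMSO), arranged by role. All Id genes and inhibitors lie left of 0, the receptors and the signal-carrying Smads other than Smad9 (-0.45) lie near 0, and the antagonists spread from Grem1 at -2.20 to Sostdc1, drawn as an arrow at its lower bound.

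Of the 4 Id genes, the classical transcriptional readout of BMP receptors, Id1, Id2 and Id3 fell, where 31.1% of all genes were called lower. Id1 (chromosome 2 from 152736251 to 152737410 in GRCm38) gave 490, 467 and 446 reads in the DMSO libraries, compared to 308, 262, 266 and 261 under purmorphamine. The groups were well separated. Its log2 fold change was -0.82 (standard error, SE, 0.0767; edgeR adjusted p = 1.41e-07), which leaves 0.568 of the vehicle level. Id3 (chromosome 4 from 136143497 to 136145755) gave 588, 562 and 575 reads in the DMSO libraries, compared to 363, 357, 326 and 348 under purmorphamine, again without overlap. The log2 fold change of Id3 was -0.77 (SE 0.0638, edgeR adjusted p = 2.93e-08). Id2 (chromosome 12 from 25093799 to 25097140), at the highest level per length among the Id genes, gave 1241, 1292 and 1254 reads in the DMSO libraries, compared to 1001, 890, 900 and 993 under purmorphamine. It fell less, by 0.46 on the log2 scale (SE 0.054, edgeR adjusted p = 2.04e-06), with no overlap between the groups. Id4 was scarce, with 13, 18 and 16 reads against 13, 7, 16 and 10. Its groups overlapped, and its log2 fold change of -0.49 had a standard error of 0.305 (edgeR adjusted p = 0.205). It was called lower by limma-voom, the study's test (adjusted p = 0.169), and without DMSO replicate 2 (0.19) or purmorphamine replicate 7 (0.094), and its log2 fold change ran from -0.68 to -0.30 with single libraries left out.

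The unequal fall of the Id genes was restated as ratios of the same counts within each library, which need no scaling between libraries. The ratio of Id1 to Id2 reads was 0.371 ± 0.0211 (SD, n = 3) in DMSO and 0.290 ± 0.0192 (SD, n = 4) in purmorphamine libraries (exact permutation test, two-sided, p = 0.0286, adjusted p = 0.0429). The ratio of Id2 to Id3 reads went from 2.20 ± 0.0952 to 2.72 ± 0.155 with the same exact p-values. For Id1 and Id3 the difference lay within the spread of the libraries, with 0.813 ± 0.0326 reads of Id1 per read of Id3 against 0.787 ± 0.0542 (exact permutation test, two-sided, p = 0.457, adjusted p = 0.477). In all, 24 such ratios were formed, between members of a role that averaged at least 50 reads, the antagonists left out. Of these, 16 differed at the smallest p-value that 3 libraries against 4 allow, 0.0286, and the ratios share genes and libraries. No ratios between other genes were formed for comparison, and taken singly 49.5% of all genes had groups without overlap.

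The 3 genes that damp the signal inside the cell or at its membrane were also called lower, as were 31.1% of all genes, Smad7 only in some of the refits. Bambi encodes a receptor-like membrane protein without a kinase that blocks type I receptors. It gave 416, 401 and 439 reads in the DMSO libraries, compared to 130, 112, 128 and 133 under purmorphamine (chromosome 18 from 3507923 to 3516404). The groups lay far apart. Its log2 fold change was -1.78 (SE 0.0855, edgeR adjusted p = 2.55e-11), a 3.44-fold decrease. The row of its pseudogene Bambi-ps1 held at most 2 reads in any library.

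Smad6 and Smad7, the inhibitory Smads, moved much less. Smad6, which competes mainly in BMP signaling, gave 249, 255 and 230 reads in the DMSO libraries, compared to 199, 208, 190 and 207 under purmorphamine. The groups did not overlap, and the log2 fold change was -0.33 (SE 0.0827, edgeR adjusted p = 0.00346). Smad7, which acts on both BMP and TGF-β receptors, gave 191, 189 and 181 reads in the DMSO libraries, compared to 165, 146, 172 and 187 under purmorphamine. Here the groups overlapped, and its call (log2 fold change -0.21, edgeR adjusted p = 0.1) was lost with library totals alone (edgeR adjusted p = 0.203), without DMSO replicate 2 (0.231) and without purmorphamine replicate 6 (0.263). The ratio of Smad6 to Bambi reads rose from 0.586 ± 0.0570 to 1.61 ± 0.169 (exact permutation test, two-sided, p = 0.0286, adjusted p = 0.0429). That of Smad6 to Smad7 was 1.31 ± 0.0394 with vehicle and 1.21 ± 0.150 with purmorphamine (exact permutation test, two-sided, p = 0.286, adjusted p = 0.312).

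**Figure D2:**
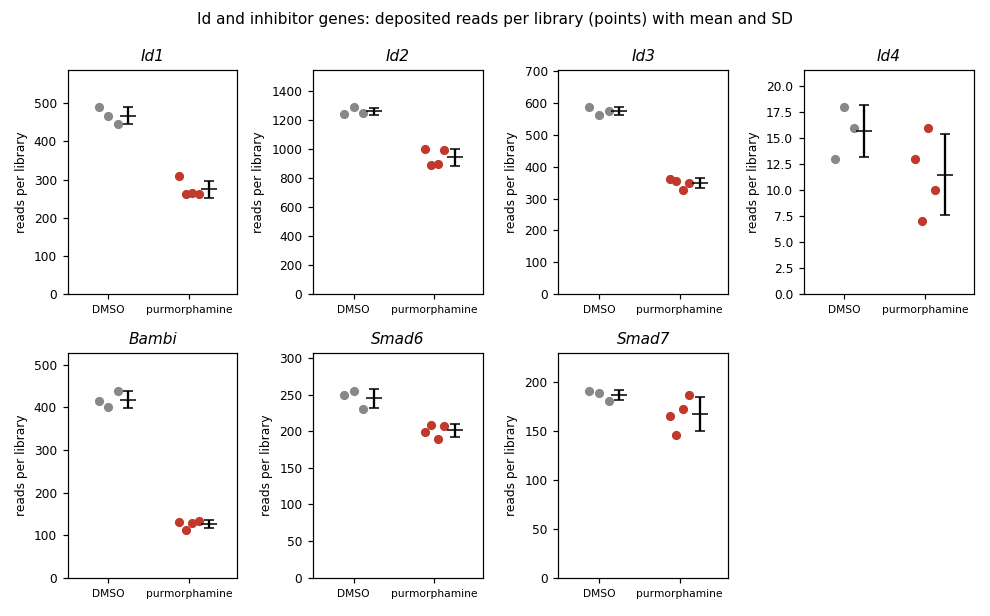
Deposited reads per library (y axes, from 0) for the 4 Id genes and the 3 inhibitors, with 3 vehicle and 4 purmorphamine libraries as points and the mean and SD beside them. The groups are separate for Id1, Id2, Id3, Bambi and Smad6 and overlap for Id4 and Smad7.

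Among the 10 listed ligands with a row, which leaves out Bmp2 and Gdf10, Bmp4 made up most of the transcripts. Per kilobase of exon, it accounted for 77.6% ± 0.929 (SD, n = 3) of ligand reads in DMSO and 80.6% ± 1.52 (SD, n = 4) in purmorphamine libraries. Its level was 65.5 ± 3.41 reads per kilobase of merged exon, scaled to library size (RPKM), with vehicle and 47.1 ± 4.56 under purmorphamine. Bmp4 (chromosome 14 from 46383520 to 46390669) gave 1986, 2048 and 2187 reads in the DMSO libraries, compared to 1568, 1734, 1357 and 1505 under purmorphamine. The groups did not overlap, and the log2 fold change was -0.48 (SE 0.0647, edgeR adjusted p = 1.18e-05).

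Gdf11, a relative of myostatin that signals mainly through activin-type receptors, fell most of the ligands tested. It gave 914, 902 and 901 reads in the DMSO libraries, compared to 431, 494, 469 and 429 under purmorphamine (chromosome 10 from 128882295 to 128891718). Its log2 fold change was -1.04 (SE 0.0608, edgeR adjusted p = 3.35e-10), a 2.05-fold decrease with groups far apart. Inhba, which encodes the βA subunit of activins, was the only ligand called higher, in the same fit. It gave 54, 47 and 53 reads in the DMSO libraries, compared to 151, 118, 133 and 137 under purmorphamine (chromosome 13 from 16011851 to 16031621). The log2 fold change of Inhba was 1.34 (SE 0.134, edgeR adjusted p = 3.18e-07). Inhbb, the βB subunit, had 124 to 137 reads with vehicle and 111 to 124 with purmorphamine, and its call (log2 fold change -0.19, edgeR adjusted p = 0.137) was lost under 7 of the refits. The ratio of Inhba to Inhbb reads went from 0.394 ± 0.0388 to 1.15 ± 0.154 (exact permutation test, two-sided, p = 0.0286, adjusted p = 0.0429). Bmp6 had 4 to 9 reads with vehicle and 7 to 14 with purmorphamine, and was not called (log2 fold change 0.56, SE 0.376, edgeR adjusted p = 0.235).

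The other ligands with a row were close to the detection limit. Bmp3, Bmp5, Bmp7 and Gdf5 had at most 3 reads in any library. Gdf5, a cartilage and joint factor, had 3, 3 and 2 reads with vehicle and none with purmorphamine, at or under the floor in both groups. Gdf6 gave 2, 8 and 2 reads in the DMSO libraries, compared to 1, 3, 0 and 0 under purmorphamine. None of these 5 genes passed the filter on low counts.

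Antagonists and extracellular modulators held the members with the lowest and the highest fold change of all those tested. Of 12, 9 were tested, of which 4 rose (44.4%, against 31.4% of all genes), 3 fell (33.3%, against 31.1%) and 2 were not called. Sostdc1, also known as ectodin or USAG-1, binds BMPs and also the Wnt co-receptors LRP5 and LRP6. It had no read in any of the 3 vehicle libraries and 156, 115, 151 and 150 reads with purmorphamine (chromosome 12 from 36314139 to 36318452). Against the 3 reads per library that a count of 0 allows, it was at least 47.7-fold higher (edgeR adjusted p = 1.39e-10). Its near relative Sost, or sclerostin, gave 1, 1 and 4 reads in the DMSO libraries, compared to 1, 0, 0 and 0 under purmorphamine, and was not tested.

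Chrdl1, a chordin-like antagonist with a preference for BMP4, gave 46, 53 and 41 reads in the DMSO libraries, compared to 252, 245, 229 and 239 under purmorphamine (chromosome X from 143285674 to 143394262). The groups were far apart, with a log2 fold change of 2.32 (SE 0.116, edgeR adjusted p = 4.63e-11), 4.99-fold up. Chordin itself (Chrd) rose less. It gave 80, 84 and 63 reads in the DMSO libraries, compared to 116, 135, 108 and 99 under purmorphamine, a log2 fold change of 0.55 (SE 0.141, edgeR adjusted p = 0.00406) and no overlap. Bmp1, a metalloproteinase of the tolloid family that cuts chordin and procollagens and is no BMP despite its name, rose from 2790.0 ± 110 to 3563 ± 424 reads (log2 fold change 0.31, edgeR adjusted p = 0.00165).

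Grem1, or gremlin, which binds BMP2, BMP4 and BMP7, moved the opposite way. It gave 414, 382 and 389 reads in the DMSO libraries, compared to 74, 96, 94 and 91 under purmorphamine (chromosome 2 from 113746164 to 113758646). No library of one group came near the other, and the log2 fold change was -2.20 (SE 0.0955, edgeR adjusted p = 7.12e-12), a 4.59-fold decrease. Noggin (Nog) was barely detected, with 1, 0 and 1 reads with vehicle and none with purmorphamine. In vehicle cells the level of Grem1 was 6.77 ± 0.301 RPKM, against 0.859 ± 0.124 for Chrd, 0.49 ± 0.0612 for Chrdl1 and none for Sostdc1. With purmorphamine Sostdc1 stood highest of these, at 5.52 ± 0.743, followed by Chrdl1 at 2.45 ± 0.091, Grem1 at 1.47 ± 0.167 and Chrd at 1.26 ± 0.165. The SDs of the last pair overlap, while those of the others in that order do not.

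The remaining modulators changed little or not detectably. Follistatin (Fst), which traps activins and some BMPs, had 2052 ± 24.2 reads with vehicle and 1951 ± 117 with purmorphamine, and its call (log2 fold change -0.12, edgeR adjusted p = 0.0669) was lost with library totals alone (adjusted p = 0.253). Twsg1, or twisted gastrulation, a partner of chordin, fell from 4575 ± 75.0 to 4287 ± 98.0 reads (log2 fold change -0.14, edgeR adjusted p = 0.0131). Bmper, or crossveinless-2, had 406 ± 39.6 and 432 ± 15.2 reads and a log2 fold change of 0.042 (SE 0.0743, edgeR adjusted p = 0.675). Fstl1, a secreted follistatin-like glycoprotein, was by far the most abundant member, at 1190.0 ± 43.9 RPKM with vehicle and 1187 ± 37.6 with purmorphamine. The log2 fold change of Fstl1 was -0.0032 with a standard error of 0.0491, and its sign changed with the scaling. Fstl3 had at most 1 read in any library.

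**Figure D3:**
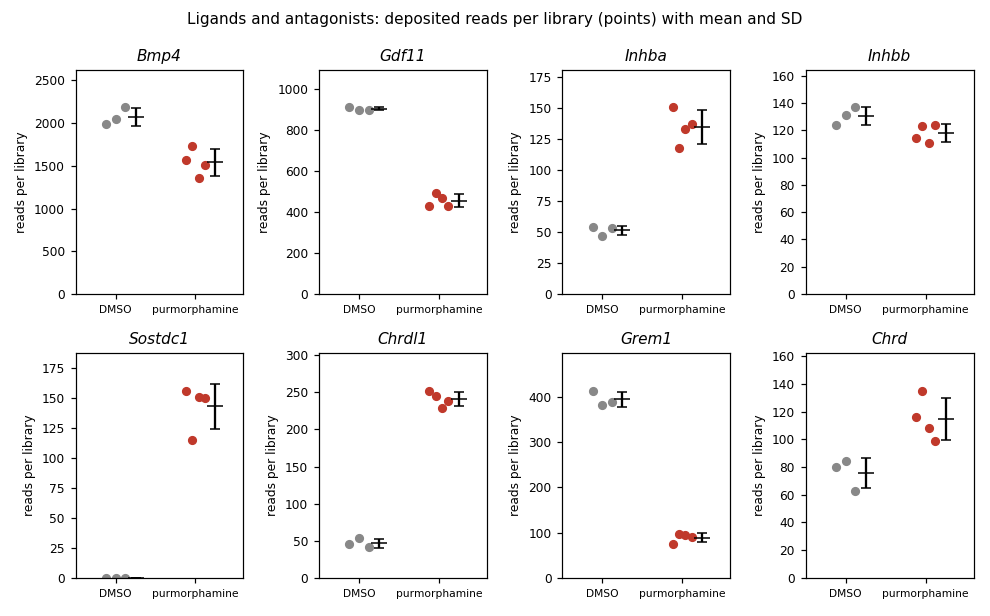
Deposited reads per library (y axes, from 0) for 4 ligands and 4 antagonists, with 3 vehicle and 4 purmorphamine libraries as points and the mean and SD beside them. Bmp4, Gdf11 and Grem1 are lower with purmorphamine, Inhba, Sostdc1, Chrdl1 and Chrd are higher, and the groups of Inhbb touch at 124 reads.

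Sequence upstream of the start is shown for Bmp4, the main ligand among those with a row, and for Gdf11, Inhba and Grem1. Gdf11, Inhba and Grem1 changed by more than 1.5-fold, and their windows hold no annotated exon of GENCODE M21. Of the other members past 1.5-fold, the window of Id3 overlaps an annotated exon, and those of Sostdc1, Chrdl1, Bambi and Id1 were not analysed here. Each line gives the 250 bases before the RefSeq start, 5′ to 3′ on the strand of the gene (GRCm38.p6). Capitals mark GGCGCC, a GC-rich site bound by BMP-responsive Smads, which reads the same on both strands. The windows are chr14:46390670-46390919 (minus strand) for Bmp4, chr10:128891719-128891968 (minus) for Gdf11, chr13:16011601-16011850 (plus) for Inhba and chr2:113758649-113758898 (minus) for Grem1.
Bmp4: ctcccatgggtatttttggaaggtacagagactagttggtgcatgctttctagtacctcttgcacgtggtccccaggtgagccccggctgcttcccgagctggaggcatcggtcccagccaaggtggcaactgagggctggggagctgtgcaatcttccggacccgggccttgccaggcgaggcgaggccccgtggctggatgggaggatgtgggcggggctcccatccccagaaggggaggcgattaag
Gdf11: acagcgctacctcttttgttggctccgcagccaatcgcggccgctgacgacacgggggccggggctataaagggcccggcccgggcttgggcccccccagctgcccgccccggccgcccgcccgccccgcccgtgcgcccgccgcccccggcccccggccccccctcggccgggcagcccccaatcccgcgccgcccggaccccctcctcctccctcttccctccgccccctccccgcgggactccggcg
Inhba: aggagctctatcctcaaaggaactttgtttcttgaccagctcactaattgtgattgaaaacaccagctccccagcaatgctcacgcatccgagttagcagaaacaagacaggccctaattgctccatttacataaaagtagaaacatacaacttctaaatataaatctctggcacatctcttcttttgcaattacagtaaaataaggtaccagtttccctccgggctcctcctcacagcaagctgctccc
Grem1: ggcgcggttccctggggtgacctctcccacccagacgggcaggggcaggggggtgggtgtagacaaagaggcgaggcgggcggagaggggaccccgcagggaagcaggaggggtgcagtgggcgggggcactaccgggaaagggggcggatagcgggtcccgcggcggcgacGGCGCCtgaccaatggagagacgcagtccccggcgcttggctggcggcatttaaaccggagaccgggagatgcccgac
Of these 4 windows only that of Grem1 holds the 6 letters, starting 78 bases before the start. The windows differ in base composition, with 81.2% G and C in Gdf11, 72% in Grem1, 63.2% in Bmp4 and 43.2% in Inhba. RefSeq promoters matched 27 of the 42 members with 31 windows in all, of which 8 (25.8%) hold GGCGCC, in Bmpr1a, Bmpr2, Chrd, Grem1, Id2, Id4, Smad5 and Smad9, against 9.59% of all 32851 windows. The member windows were richer in G and C, with a median of 68.0% against 52.4%, and the share was not adjusted for that. TGGGTGGTC, the binding sequence of the Gli factors, read on both strands, was in none of the 31 windows and in 0.225% of all windows. The genes with this GC-rich site included ones that fell, rose or did not pass the test.

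The tested receptors changed by less than 1.5-fold throughout, where 15.4% of all genes were called with a change of at least 1.5-fold. Bmpr1a, the type I receptor known as ALK3, dominated its role at 67.1 ± 0.956 RPKM with vehicle and 62.0 ± 2.82 with purmorphamine. It gave 6068, 5935 and 5997 reads in the DMSO libraries, compared to 5512, 5517, 5934 and 5936 under purmorphamine. The counts of the groups overlapped by 1 library, the log2 fold change was -0.11 (SE 0.0465, edgeR adjusted p = 0.0531), and the call was lost with library totals alone (adjusted p = 0.233). Acvr2a, a type II receptor for activins and BMPs, fell from 447 ± 17.9 to 408 ± 18.1 reads (log2 fold change -0.18, edgeR adjusted p = 0.0361). Acvr1, the type I receptor ALK2, rose from 923 ± 9.71 to 1024 ± 25.6 reads, by 0.10 on the log2 scale (edgeR adjusted p = 0.102), a call lost without DMSO replicate 3 (0.243). Bmpr2, the main type II receptor for BMPs, rose from 1039 ± 65.3 to 1167 ± 58.5 reads with overlapping groups (log2 fold change 0.12, edgeR adjusted p = 0.0996), a call lost without DMSO replicate 2 (adjusted p = 0.391).

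The same receptor counts were also restated as ratios within libraries, chosen after the counts were seen. The ratio of Bmpr1a to Acvr1 reads fell from 6.5 ± 0.0126 to 5.60 ± 0.312, and that of Bmpr2 to Acvr2a rose from 2.32 ± 0.146 to 2.86 ± 0.153 (exact permutation test, two-sided, p = 0.0286, adjusted p = 0.0429 for each). The ratio of Bmpr2 to Acvr1 was 1.13 ± 0.0805 against 1.14 ± 0.0557 (exact permutation test, two-sided, p = 0.771, adjusted p = 0.771). Bmpr1b, the type I receptor ALK6 of cartilage, had no read with vehicle and at most 2 with purmorphamine. Acvrl1, an endothelial type I receptor, had 6 to 8 and 7 to 14 reads, and Acvr2b 7 to 15 and 8 to 17, with a log2 fold change of 0.21 and a standard error of 0.357 (edgeR adjusted p = 0.658).

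The Smads that carry the signal were nearly level, apart from Smad9. Smad5, with 3065 ± 63.1 and 3094 ± 71.8 reads, and Smad1, with 414 ± 17.1 and 435 ± 24.8 reads, were not called. Their log2 fold changes were -0.033 (SE 0.0438, edgeR adjusted p = 0.568) and 0.024 (standard error 0.0697, adjusted p = 0.811). Smad9, also called Smad8, gave 342, 422 and 391 reads in the DMSO libraries, compared to 273, 271, 287 and 333 under purmorphamine. The groups came close without overlap, at a log2 fold change of -0.45 (SE 0.09, edgeR adjusted p = 0.00056). Smad4, the partner shared with TGF-β signaling, rose slightly from 1503 ± 16.3 to 1729 ± 34.7 reads, by 0.16 on the log2 scale (edgeR adjusted p = 0.00902).

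**Figure D4:**
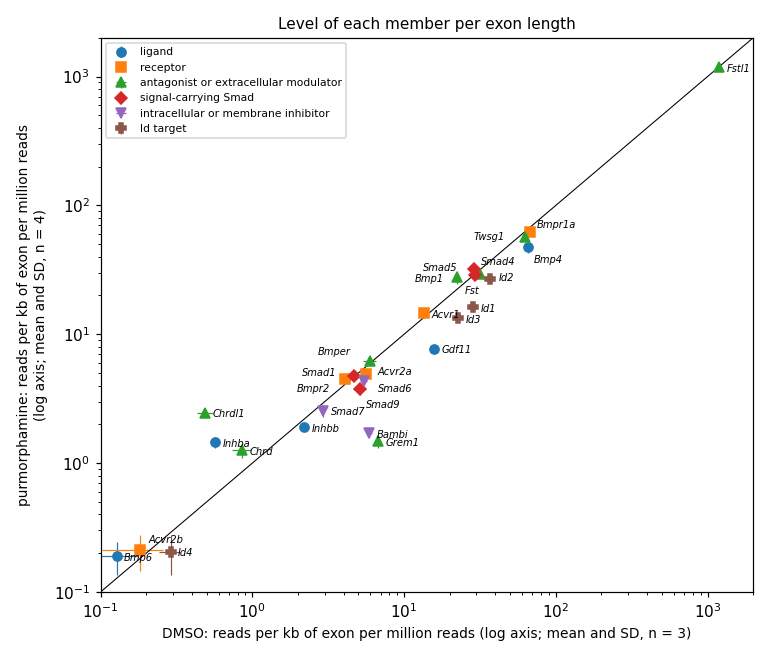
Mean level of each tested member with vehicle (x axis) and purmorphamine (y axis) in RPKM on log axes with SDs, except Sostdc1, which is at 0 with vehicle. Fstl1 lies on the line of equal levels near 1190, the Id genes, Bmp4, Gdf11, Bambi and Grem1 lie below it, and Chrdl1, Inhba and Chrd lie above.

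A further 74 genes of BMP and related signaling were listed, of which 43 were tested. Of these, 19 rose and 12 fell (44.2% and 27.9%, against 31.4% and 31.1% of all genes), and their median log2 fold change was 0.084. A change of at least 1.5-fold was called for 7 (16.3%, against 15.4% of all genes). Hey1, a target of both Notch and BMP signaling, was the only gene past 2-fold with a mean of at least 50 reads. It gave 98, 98 and 78 reads in the DMSO libraries, compared to 249, 194, 239 and 273 under purmorphamine, a log2 fold change of 1.34 (SE 0.129, edgeR adjusted p = 2.06e-07).

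Other genes of that list are named here after their values were seen. Among targets, Msx1, a homeobox gene of limb and skull mesenchyme, rose from 123 ± 4.16 to 232 ± 25.1 reads (log2 fold change 0.86, edgeR adjusted p = 3.05e-06). Dlx5, a homeobox gene of osteoblasts, rose from 92.7 ± 9.29 to 153 ± 29.7 reads (log2 fold change 0.68, edgeR adjusted p = 0.00108). Snai1, a zinc-finger repressor, fell from 633 ± 64.1 to 391 ± 56.2 reads (log2 fold change -0.74, edgeR adjusted p = 5.22e-06), and Atoh8, a helix-loop-helix factor, from 422 ± 28.3 to 352 ± 53.1 (log2 fold change -0.31, edgeR adjusted p = 0.0151). Of the 11 targets tested in that list, 5 rose and 5 fell (45.5% each, against 31.4% and 31.1% of all genes). The fall of Id1, Id2 and Id3 was thus not shared by all listed targets.

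Of the co-receptors, Rgmb rose from 878 ± 51.9 to 1516 ± 89.2 reads (log2 fold change 0.74, edgeR adjusted p = 1.83e-08), while its binding partner neogenin (Neo1) fell from 7242 ± 71.8 to 4446 ± 194 (log2 fold change -0.75, edgeR adjusted p = 6.36e-10). Smad3, which carries TGF-β and activin rather than BMP signals, rose from 2359 ± 51.7 to 3770.2 ± 67.4 reads (log2 fold change 0.63, edgeR adjusted p = 2.69e-09). Nbl1, a secreted antagonist of the DAN family to which gremlin belongs, rose from 730.3 ± 28.7 to 1129.8 ± 173 reads (log2 fold change 0.58, edgeR adjusted p = 3.82e-05). Crim1, a membrane protein with chordin-like repeats, fell from 1956 ± 47.1 to 1349.8 ± 61.9 (log2 fold change -0.58, edgeR adjusted p = 2.4e-08).

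**Figure D5:**
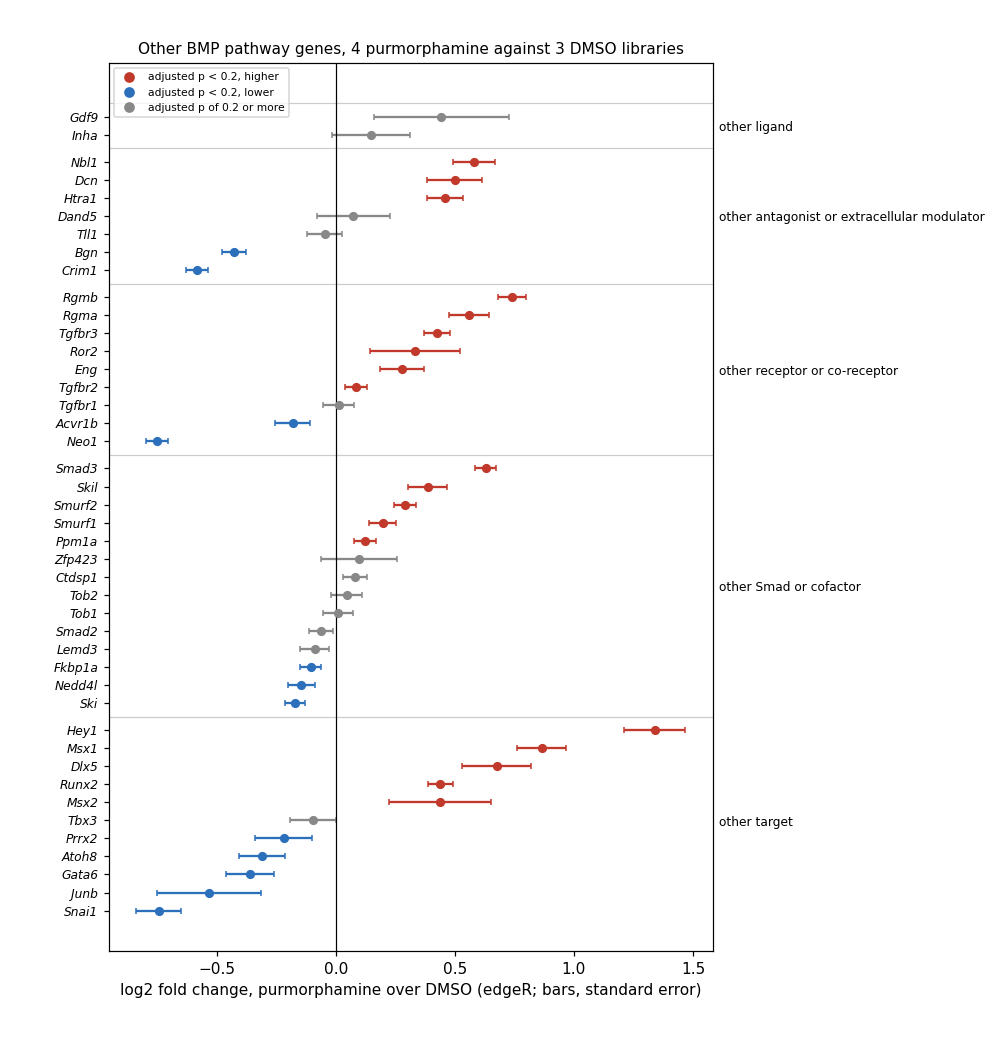
Log2 fold change (x axis, purmorphamine over DMSO, with standard errors) of the 43 tested genes of the wider BMP list, by role. Hey1 at 1.34 is farthest right and Neo1 at -0.75 farthest left, and the listed targets lie on both sides of 0.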

How the data were processed

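RNA from C3H10T1/2 cells given purmorphamine (4 libraries) or DMSO (3 libraries) was depleted of ribosomal RNA and sequenced by the authors with a stranded kit. They resampled reads to equal numbers per library before counting, and deposited whole-number counts of sense reads per gene. STAR 2.5.3a and mm9 are named in the submitters' processing notes, and the annotation is not given in the sources used here. No per-sample column was left unused.

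Counts were tested with edgeR 4.0.16 (R 4.3.3): TMM factors (0.978 to 1.02), filterByExpr (10 counts, total 15), quasi-likelihood test without covariates, and Benjamini-Hochberg adjustment over 12388 genes at 0.2, the study's FDR. The study's test, limma-voom (limma 3.58.1), DESeq2 1.42.0, other scaling, filters and thresholds, and fits lacking 1 library served as alternatives. Standard errors are the absolute log2 fold change divided by the root of F. Fold changes are fitted values. Ratios between genes were compared by exact permutation over 35 assignments, on the log2 scale, and were chosen after the counts were seen, as were the promoter motifs. Levels per length used merged exons of GENCODE M21 (GRCm38, by Ensembl identifier, 95.5% of genes matched), scaled by TMM. The edgeR, DESeq2 and limma-voom fits were first tested on simulated data in which 200 genes differed, and the other steps were not. In the real data 62.5% of the tested genes were called, a setting that the simulation did not cover.

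Members, roles and lists were chosen with earlier results of these data known. Library counts are given for members called at 1.5-fold and for Sostdc1, Bmp4, Nog, Bmpr1a, Smad6, Smad7 and the Id genes. The remaining members are given by value or range, and some also by library. Of the wider list, genes past 2-fold with a mean of 50 reads are named.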

Additional observations from a re-analysis of the deposited data

Results flagged for a closer look

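Of the 30 tested members, 2 had 1 purmorphamine library distant from the rest, where chance gives about 1.5 (1 in 20). For Sostdc1, replicate 6 had 115 reads against 150, 151 and 156, a gap that made up 0.847 of the range after TMM scaling. For Id1, replicate 5 had 308 reads against 261, 262 and 266, a gap of 0.838 of the range. Both exceed Dixon's 95% critical value for 4 libraries. Without replicate 5 the log2 fold change of Id1 was -0.87, against -0.82 with it. Without replicate 6 Sostdc1 was still called higher (edgeR adjusted p = 1.42e-12). The cause of either gap was not tested.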

How the results depend on the processing

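No paired analysis was possible because DMSO and purmorphamine libraries carry different numbers. By construction, a 1.5-fold minimum left the fewest calls, 3 members higher and 5 lower, and 5 and 2 in the wider list. With single libraries left out, members called higher ran from 7 to 9 and lower from 13 to 15, and genes of the wider list from 16 to 21 and from 10 to 12. At an adjusted p under 0.05 there were 6 members higher and 11 lower, and the share of all genes at that threshold was not counted.

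Across the refits at the same threshold, 6 of the 8 members called higher and 11 of the 15 called lower kept their direction and call wherever they were tested. The exceptions were Bmpr2 and Acvr1 (edgeR adjusted p = 0.243 without DMSO replicate 3) among the former, and Inhbb, Bmpr1a, Fst and Smad7 among the latter. Signs changed, without a call, for Fstl1 (0.044 with library totals alone, 0.0023 without a filter and 0.00069 with at least 10 reads in every library) and for Smad5 (0.014 with library totals alone). With single libraries left out, the log2 fold change of Fstl1 ran from -0.029 to 0.028, of Bmper from -0.015 to 0.13 and of Smad1 from -0.00024 to 0.068. The cause was not tested. Bmp6 and Id4, not called here, passed the threshold in 3 refits each. Without a filter on low counts 5 scarce members were also called, Gdf5, Gdf6 and Sost lower and Bmp3 and Bmpr1b higher, each with at most 8 reads in a library. Members with a few reads are limited by depth.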
